A study of Mus musculus with 2 samples.

Results

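Neurocan (Ncan), brevican (Bcan), versican (Vcan), aggrecan (Acan), the link protein Hapln1, tenascin-C (Tnc), the growth factors pleiotrophin (Ptn) and midkine (Mdk) and the receptor phosphatase Ptprz1 make up the matrix genes described here, chosen by name and counting 9 of the 43346 genes in the tables. They were measured in midbrain tissue of embryonic mice of strain B6NCrl, aged 13.5 days, in 2 libraries of 1 group with no other genotype, treatment, tissue or age. Each library was made from 10 ng of RNA longer than 200 nt with added spike-in RNA, from pooled male and female tissue. In the labels they are biological replicates 1 and 2, with separate biosample entries but the same donor entry. They do not say whether separate litters were used, so every SD and p-value covers only the spread between these libraries, which may be partly technical.

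The extracellular matrix of the brain is built on hyaluronan, a long sugar chain. Lecticans (Ncan, Bcan, Vcan and Acan) are chondroitin sulfate proteoglycans that bind hyaluronan at one end and tenascins at the other, and link proteins of the Hapln family lock the lectican to the hyaluronan. Ptn and Mdk are small secreted growth factors that bind the sugar chains of proteoglycans, and Ptprz1 is a receptor tyrosine phosphatase whose own chondroitin sulfate chains bind both. In the embryonic brain radial glia, young neurons and, later, oligodendrocyte precursors make these proteins, and dense nets of Acan, Hapln1 and tenascin-R form around certain neurons only after birth.

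Depth was ample for most of these genes. The libraries held 32151659 and 41915240 estimated reads, of which the 9 genes took 39811 in replicate 1 and 51145 in replicate 2, or 0.127% of gene reads in each. Spike-ins took 5.36% of all TPM (a level per transcript length, scaled to 1 fixed total in each library) in replicate 1 and 9.39% in replicate 2, so the deposited TPM of every gene is slightly lower in replicate 2 for the same share of gene RNA. The tissue label was checked against markers. All 4 midbrain markers were detected, meaning at least 1 TPM in both libraries, with Otx2 at 104 and 117 TPM, while 0 of 4 Hox genes of the hindbrain were. Radial glial markers (7 of 7 detected) summed to 2202 and 2113 TPM in replicates 1 and 2, and neuronal markers (5 of 5) to 3083 and 2874 TPM. The astrocyte list had 1 of 4 genes detected, Aldh1l1, with Gfap at 0 and 0.01 TPM. Endothelial and mural markers were all detected (5 of 5). RNA of whole tissue is a mixture, so fewer cells of a type and less RNA per cell cannot be told apart.

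The members spanned nearly 4 orders of magnitude of TPM. The growth factors and Ncan stood at the top, Vcan, Ptprz1, Tnc and Bcan in the middle, and Hapln1 and Acan near or at the bottom. Of the 9 genes 7 were detected (77.8%), against 34.3% of all genes and 60.2% of protein-coding genes. The 9 genes were chosen with earlier results of these data known, so this share is only a description. The median member stood at 29.3 TPM in replicate 1 and 23.2 TPM in replicate 2, beside medians of 19.9 and 19.6 TPM over the 12929 detected protein-coding genes.

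**Figure D1:**
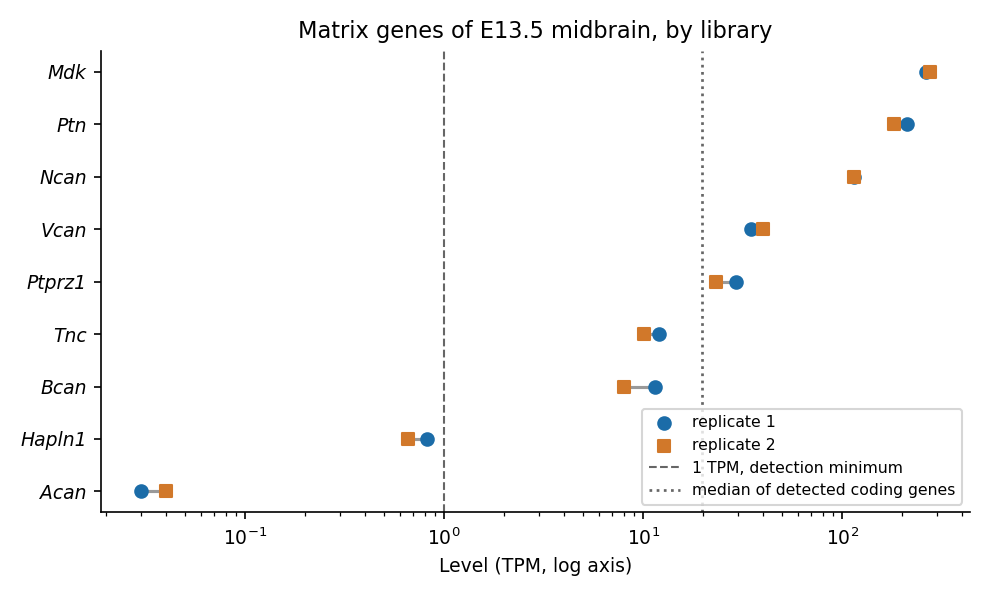
Level of each of the 9 genes in TPM (log axis) in replicate 1 (circles) and replicate 2 (squares), with lines at 1 TPM and at the median of detected protein-coding genes. Mdk leads at 264 and 277 TPM, Acan trails at 0.03 and 0.04 TPM, and Tnc and Bcan are the only neighbours in the order whose points interleave.

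Mdk, a growth factor for neural and other embryonic tissues, was highest. Its level was 264 TPM in replicate 1 and 277 TPM in replicate 2 (270 ± 9.23, SD, n = 2), from 3516 and 4920 reads. It ranked 544 among all genes, above 96.2% of detected protein-coding genes, and lies on the minus strand of chromosome 2 at 91929805 to 91932297 (ENSMUSG00000027239.10; this and all positions are on GRCm38). Ptn, its only close relative in the genome, reached 212 TPM in replicate 1 and 182 TPM in replicate 2 (197 ± 20.8), from 8156 and 9370 reads on chromosome 6, 36714929 to 36810220 (ENSMUSG00000029838.8). Each library put Mdk above Ptn. The difference was 0.46 on the log2(TPM + 0.1) scale, or 1.37-fold, with 0.32 in replicate 1 and 0.60 in replicate 2 (limma with a gene-wise spread, two-sided, adjusted p = 0.0164). This order rests on the transcript length used for Ptn, which was 2021 nt in the deposited tables and is 1614 nt in a later annotation. With the later length and the same reads, Ptn stood at 269 TPM in replicate 1, above Mdk, and at 231 TPM in replicate 2, below it. Reads were not reassigned to the later model, so these values show the effect of the length alone. The difference was then 0.12 and was not called (adjusted p = 0.344 by the same limma fit).

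Pair differences were tested in both libraries by an intercept-only limma fit relative to each higher member in turn, over all detected genes, with Benjamini-Hochberg adjustment over each fit. Of the 36 pairs among the 9 genes, 35 were called at an adjusted p under 0.05, beside 92.5% of all detected genes against the same 8 references. A share this near the background says that levels of most genes differ, not that these pairs stand out. Hapln1, 1 of the references, lies below the 1 TPM at which other genes entered, and all 14879 genes were called against it. Ratios of 1 fit share the deviation of their reference, which makes those p-values too small. The adjusted p-values printed come from a refit with a gene-wise spread, added after seeing the data, which called 92.4% of all genes and the same number of pairs, 35.

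Ptprz1, the receptor that both growth factors bind, was an order of magnitude below them. It stood at 29.3 TPM in replicate 1 and 23.2 TPM in replicate 2 (26.2 ± 4.31, 4674 and 4937 reads), on chromosome 6 at 22875502 to 23052916 (ENSMUSG00000068748.4). Mdk exceeded it by 3.37 on the log2 scale (10.3-fold) and Ptn by 2.91 (7.52-fold). Both libraries showed both differences. The tables hold 1 transcript for Ptprz1, so its long receptor, its short receptor and the secreted form known as phosphacan could not be separated.

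Ncan was the leading lectican. Its core protein carries chondroitin sulfate chains and is known mainly from the nervous system. It stood at 114 TPM in each library (114 ± 0.0919, 16228 and 21624 reads), above 89.4% of detected protein-coding genes, and lies on chromosome 8 at 70093085 to 70120873 (ENSMUSG00000002341.8). This small SD holds for the deposited scale only. With TPM rescaled over genes only, Ncan stood at 121 TPM in replicate 1 and 126 TPM in replicate 2 (SD 3.69). Vcan, the lectican of many embryonic tissues, followed at 34.8 TPM in replicate 1 and 39.9 TPM in replicate 2 (37.3 ± 3.59, 4820 and 7755 reads) on chromosome 13 at 89655312 to 89742509 (ENSMUSG00000021614.12). Ncan was 3.06-fold higher than Vcan (1.61 on the log2 scale, limma with a gene-wise spread, adjusted p = 0.000329), and the libraries' ranges lay far apart.

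Bcan, a lectican known mainly from glia of the later brain, stood lower. It had 11.5 TPM in replicate 1 and 7.98 TPM in replicate 2 (9.75 ± 2.50, 649 and 552 reads) on chromosome 3 at 87987531 to 88000230 (ENSMUSG00000004892.9). Ncan was 11.8-fold higher than Bcan (adjusted p = 0.000105, limma with a gene-wise spread). Acan, the lectican of cartilage and of adult perineuronal nets, was barely measured, with 0.03 TPM from 5 reads in replicate 1 and 0.04 TPM from 8 reads in replicate 2. A floor of 3 reads corresponds to 0.018 and 0.015 TPM for this gene (chromosome 7, 79053483 to 79115099, ENSMUSG00000030607.6). Markers of cartilage summed to 39.2 and 52.4 TPM, with 2 of 6 detected. These were Col2a1 (31.5 and 44.6 TPM) and Col11a1 (5.58 and 6.06 TPM), while the cartilage matrix protein gene Matn1 was at 0.1 TPM and 0 TPM. The part of such tissue in the Acan and Vcan values was not tested.

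Tnc, a large glycoprotein that lecticans and Ptprz1 bind, was close to Bcan. It stood at 12.0 TPM in replicate 1 and 10.1 TPM in replicate 2 (11.0 ± 1.33, 1682 and 1892 reads) on chromosome 4 at 63959785 to 64047015 (ENSMUSG00000028364.11). Tnc was above Bcan by 0.20 on the log2 scale, 0.06 in replicate 1 and 0.34 in replicate 2, and this was the 1 pair of 36 that was not called (limma adjusted p = 0.266, and 0.334 with a gene-wise spread). Their values overlapped between the libraries, so the order of these neighbours is not settled.

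Apart from Mdk and Ptn, whose order depends on the length used, and Tnc and Bcan, the neighbours in the order were called different. Ptn exceeded Ncan by 0.78 on the log2 scale (1.72-fold, limma gene-wise adjusted p = 0.00277). By the same limma fit Vcan exceeded Ptprz1 by 0.51 (1.43-fold, adjusted p = 0.0277), and Ptprz1 exceeded Tnc by 1.24 (2.36-fold, adjusted p = 0.00229). The step between Vcan and Ptprz1 was uneven, 0.25 in replicate 1 and 0.78 in replicate 2. Hapln1, the link protein, fell below the detection rule with 0.82 TPM in replicate 1 and 0.66 TPM in replicate 2 (0.74 ± 0.113, 81 and 87 reads; chromosome 13, 89539796 to 89611652, ENSMUSG00000021613.8). Bcan exceeded Hapln1 11.6-fold (3.53 on the log2 scale, limma gene-wise adjusted p = 0.00072). The step from Hapln1 to Acan, 2.63 on that scale, rests on the added 0.1 because Acan is so low.

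Vcan RNA is spliced in forms that differ in how much of the chain-bearing middle of the protein they keep. Exon 7 (2880 coding nt) encodes the GAG-alpha region and exon 8 (5217 coding nt) the GAG-beta region, where chondroitin sulfate is attached. The annotated end-to-end forms are told apart by the bases across their joins, printed 5′ to 3′ from the GENCODE M21 transcripts, with the right-hand exon in capitals. Each run of 30 bases occurs in 1 Vcan transcript only.
Vcan-203, exon 7 to exon 8 (V0, both regions): gagaaaacaagacagGTCGATTGAGTGATA
Vcan-206, exon 6 to exon 8 (V1, GAG-beta only): cctactgctttaaacGTCGATTGAGTGATA
Vcan-202, exon 7 to exon 9 (V2, GAG-alpha only): gagaaaacaagacagGACCTGATCTCTGCA
Vcan-201, exon 6 to exon 9 (V3, neither region): cctactgctttaaacGACCTGATCTCTGCA

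The form with both regions led in each library. Vcan-203, coding for 3354 residues, stood at 16.1 TPM in replicate 1 and 19.2 TPM in replicate 2, or 46.2% and 48.1% of the gene's abundance (47.2% ± 1.37, n = 2). Vcan-201, which lacks both regions, followed at 10.7 and 11.3 TPM (29.6% ± 1.81). Vcan-206 stood at 0.91 and 1.36 TPM (3.01%), and Vcan-202 at 0.32 and 1.18 TPM (1.94% ± 1.45). The spread of Vcan-202 is nearly as large as its mean. Within these 4 forms alone the shares were 57.7% ± 0.569 for Vcan-203, 36.2% ± 2.91 for Vcan-201, 3.68% ± 0.618 for Vcan-206 and 2.36% ± 1.72 for Vcan-202. Because Vcan-203 is far longer, it took 81.9% of the gene's reads and Vcan-201 9.28%. The remaining abundance was assigned to other annotated fragments, led by Vcan-205 at 7.80%. All shares were estimated by the authors' tool from short reads, and the tables do not show how many reads cross each join. The 4 models also differ in their 3′ ends, at 89655312 for Vcan-203, 89656340 for Vcan-206, 89656645 for Vcan-202 and 89657056 for Vcan-201. Vcan-203 alone reaches the last stretch, and reads there can be assigned to no other end-to-end form. Splicing and 3′ end therefore cannot be fully told apart in these shares.

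**Figure D2:**
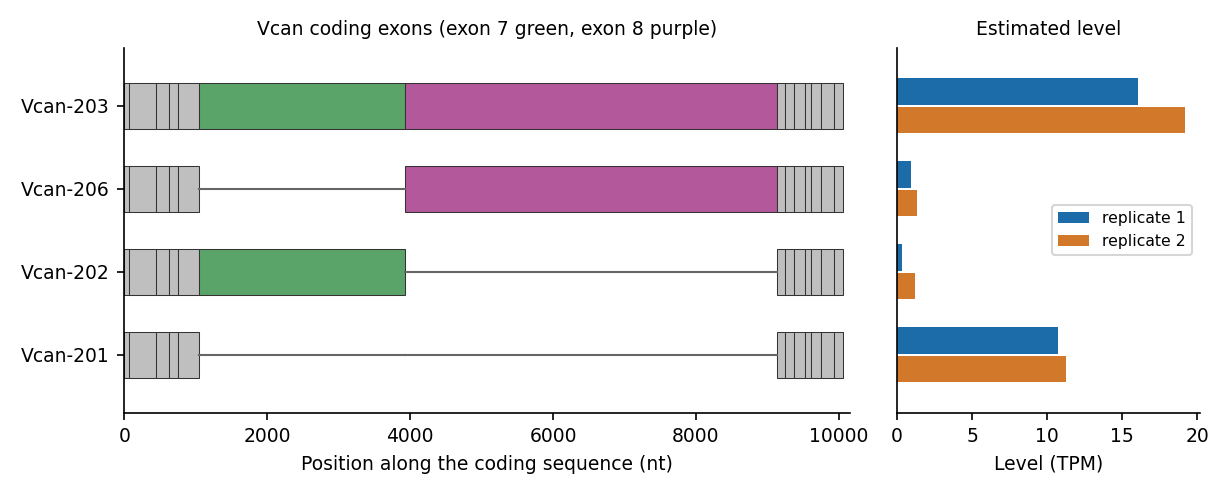
Coding exons of the 4 end-to-end Vcan forms along the coding sequence in nt (left) and the level of each form in TPM in replicates 1 and 2 (bars, right). Vcan-203 (both chain-bearing regions) and Vcan-201 (neither) hold most of the signal, at 16.1 and 10.7 TPM in replicate 1, while the forms with 1 region stay at or below 1.36 TPM.

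Tnc was split between models that differ in a fibronectin type III stretch. Exon 14 of Tnc-203 (chromosome 4, 63984460 to 63984732) has 273 nt, or 91 residues, the size of a single such repeat. Tnc-204 joins the flanking exons directly, which the join sequences show, again with the right-hand exon in capitals.
Tnc-203, into the cassette exon: ccacggctaccacagAGGCCTTGCCCCTTC
Tnc-203, out of the cassette exon: ctgagaccattacagAAGCTGAACCGGAAG
Tnc-204, skipping it: ccacggctaccacagAAGCTGAACCGGAAG
Tnc-203 stood at 7.13 TPM in replicate 1 and 5.74 TPM in replicate 2 (58.1% ± 1.88 of the gene) and Tnc-204 at 4.86 and 4.36 TPM (41.9% ± 1.88). Each library put the longer model first. The other annotated transcripts were listed at 0. Among them, Tnc-201 has the start of Tnc-203 and the skipping join of Tnc-204. Tnc-204 also starts 26290 bp upstream of Tnc-203 with a further noncoding exon. No annotated model pairs that upstream start with the cassette exon. The choice of start and the choice of exon can therefore be told apart only in part, at the downstream start.

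Mdk and Bcan have several transcripts as well. The 4 Mdk transcripts share 1 coding sequence of 420 nt (140 residues) and differ in their untranslated ends, both 5′ and 3′. Mdk-202 held 74.8% ± 1.68 of the abundance, Mdk-203 16.7% ± 1.02, Mdk-204 8.07% ± 0.537 and Mdk-201 0.415% ± 0.120. For Bcan, the full-length coding transcript Bcan-201 held 87.2% in replicate 1 and 77.3% in replicate 2 (82.3% ± 7.01), with 612 and 502 reads. Transcripts that keep an intron held 12.8% and 22.7%. These rest on 36.8 and 50.5 estimated reads, and Bcan-201 itself stood at 10.0 TPM in replicate 1 and 6.17 TPM in replicate 2. By share of reads Bcan-201 held 94.3% and 90.9%, and by posterior mean TPM 77.7% and 68.4%. Ncan, Ptn, Acan and Hapln1 have 1 transcript each in the tables.

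Each lectican gene lies beside a link protein gene, an arrangement that is old in vertebrates. In all 4 places the link protein was low and no coding gene lay between. Ncan sits 2222 bp from Hapln4, which stood at 0.33 and 0.31 TPM (23 and 29 reads), 346-fold below Ncan in replicate 1 and 368-fold in replicate 2. Vcan sits 43659 bp from Hapln1 and was 42.4-fold and 60.4-fold higher. Bcan sits 21519 bp from Hapln2, which had 0.12 and 0.43 TPM from 4 and 18 reads. Only in the pair of Acan and Hapln3, 2 bp apart on opposite strands, was the link protein the higher gene, with 0.75 and 1.07 TPM for Hapln3 (20 and 38 reads). These differences were read within each library and were not tested.

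**Figure D3:**
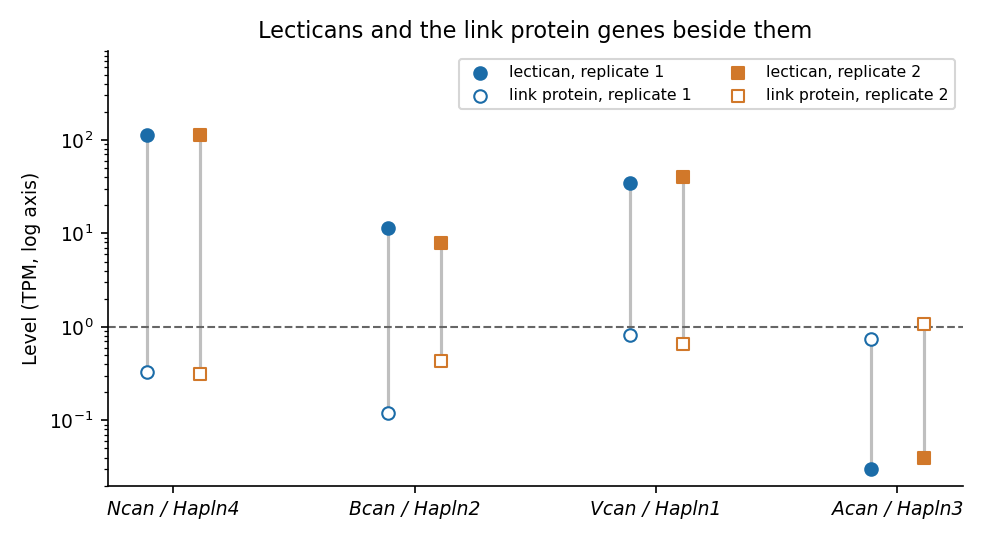
Level in TPM (log axis) of each lectican (filled) and of the link protein gene beside it (open), in replicates 1 and 2, with a dashed line at 1 TPM. Ncan, Bcan and Vcan lie far above their neighbours, while Acan at 0.03 and 0.04 TPM lies below Hapln3.

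Some members overlap other genes. Vcan, Hapln1 and Tnc each overlap a gene of the opposite strand within their genomic limits. Overlap of exons was not checked, so shared transcript sequence is not established. Those partners were low, from 0.07 TPM (Gm16318 in Vcan, replicate 2) to 0.76 TPM (8030451A03Rik in Tnc, replicate 1). Only for Hapln1 was the partner, Gm8546 at 0.52 and 0.33 TPM, of a size like the gene's own. No source used here says if reads were counted by strand. With exon overlap unchecked as well, the Hapln1 value remains uncertain.

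Genes that act with the members were mostly present. Of 76 such genes in 9 lists 57 were detected (75.0%), against 60.2% of protein-coding genes. These lists too were chosen with earlier results of these data known. Other link proteins and tenascins were the sparse group, with 1 of 6 detected. This was Tnr, the tenascin of perineuronal nets, at 2.32 and 1.34 TPM, and the lowest was Tnn at a mean of 0.02 TPM. Other chondroitin sulfate proteoglycans were detected in 7 of 7 cases, from Dcn at 42.7 ± 4.65 TPM through Spock2 at 41.4 and the neural proteoglycan Cspg5 at 25.1 ± 2.00 to Cspg4 at 1.78. Dcn is also a mesenchymal marker.

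Enzymes that build the sugar chains were nearly complete. For chain synthesis 10 of 11 were detected, led by B3gat3, which completes the linker to the core protein, at 65.4 ± 1.83 TPM. Chsy1, which extends the chain, stood at 9.21 TPM, and Xylt1, which can start it, was lowest at 0.925 TPM, below its paralog Xylt2 at 7.87 TPM. For sulfation and epimerization 9 of 10 were detected, led by Chst15 at 14.0 ± 0.276 TPM, with Chst13 lowest at 0 and 0.02 TPM. The hyaluronan list had 5 of 9. All 3 hyaluronan synthases were below 1 TPM (Has1 0.365, Has2 0.44 and Has3 0.88), while Hyal2, of the hyaluronidase family, led at 81.8 ± 1.32 TPM, the receptor Cd44 stood at 1.45 TPM and Cemip was lowest at 0.18 TPM.

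Receptors of the chondroitin sulfate chains and of the growth factors were also measured. All 5 chondroitin sulfate receptors were detected, led by the phosphatase Ptprs at 173 ± 6.86 TPM, with Ptprf at 54.0, Ptprd at 40.4 and the Nogo receptor Rtn4r lowest at 9.54 TPM. Of the Ptn and Mdk receptors and co-receptors 8 of 11 were detected. Nucleolin (Ncl) stood at 191 ± 8.22 TPM, the glypican Gpc2 at 190 ± 1.16, Lrp1 at 78.2 ± 1.90 and the syndecan Sdc3 at 58.1 ± 1.56. The receptor tyrosine kinases Alk and Ltk were under 1 TPM, Alk at 0.81 TPM in each library and Ltk lowest at 0.48 TPM.

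Neuronal partners of Ptprz1 and tenascins were detected in 5 of 7 cases. Ncam1, a cell adhesion molecule, led at 314 ± 24.5 TPM, followed by L1cam at 62.0 and Nrcam at 49.5, and contactin-1 (Cntn1), a ligand of Ptprz1, stood at 13.5 TPM. The integrin subunit Itga9 was lowest at 0.95 TPM. Proteases that cut lecticans, with their inhibitor Timp3, had 7 of 10 detected. Mmp9 stood at 14.9 ± 1.71 TPM, Timp3 at 14.5, Mmp2 at 11.6 and the lectican-cleaving Adamts4 at 5.53, with Adamts8 lowest at 0.645 TPM. These counts and levels describe the lists and carry no test.

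**Figure D4:**
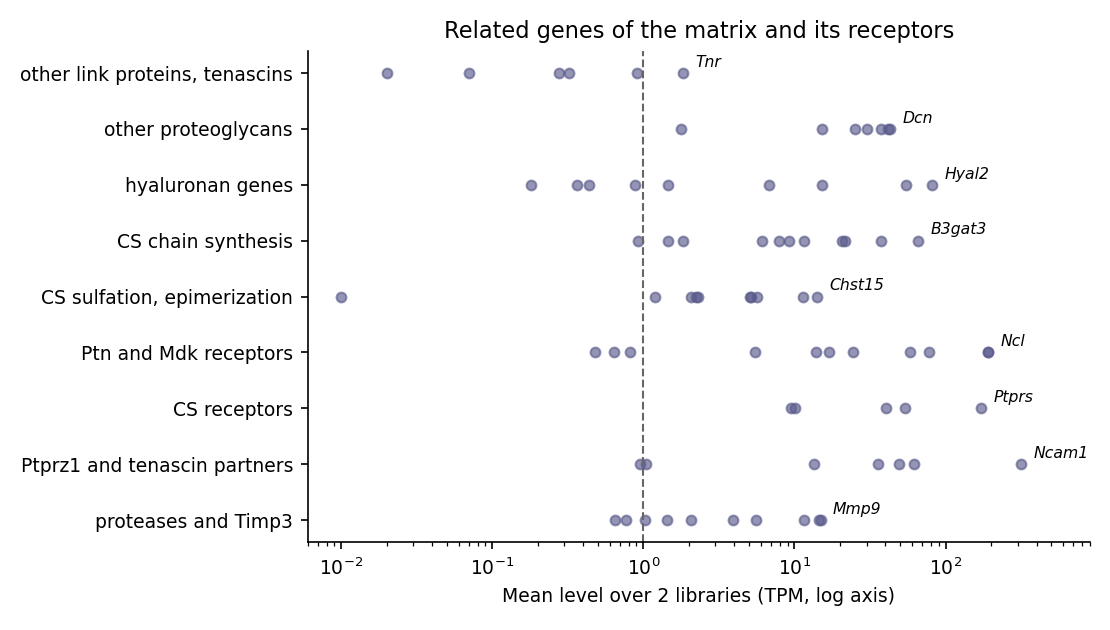
Mean TPM (log axis) of the genes in each of the 9 related lists, as points, with the detection level of 1 TPM drawn. Link proteins and tenascins lie mostly below that level (1 of 6 detected), while all 5 chondroitin sulfate receptors and all 7 other proteoglycans lie above it.

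Between the libraries the members differed modestly. Ratios were taken from counts after scaling the libraries with TMM, and 1 library on each side allows no test. None (0) of the 8 members that averaged 50 or more reads differed 2-fold, beside 0.724% of all 14366 genes at that count. At 1.5-fold 1 of 8 did, beside 3.31% of all genes. The intervals that follow are exact 95% intervals and cover counting error only. They excluded a ratio of 1 for 7 of the 8 members, 3 higher in replicate 2 and 4 higher in replicate 1, beside 39.3% of all genes at that count. Such intervals narrow with depth, and these shares are not matched for depth. The median absolute log2 ratio was 0.23 over the members and 0.10 over all genes at that count.

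Bcan was the gene past 1.5-fold. With 649 reads in replicate 1 and 552 in the deeper replicate 2, it was 1.52-fold higher in replicate 1 (interval 1.35 to 1.70), and that interval reaches below 1.5. Ptprz1 was 1.22-fold higher in replicate 1, Tnc 1.15-fold and Ptn 1.12-fold. In the oligodendrocyte precursor list, Olig2, a transcription factor of that lineage, moved like Bcan (log2 of replicate 2 over replicate 1 -0.61, 166 and 140 reads). Olig1 had the same sign (-0.18) and Pdgfra the other (0.18), but for both the counting interval included a ratio of 1. Cspg4 also had the other sign (0.23, 265 and 402 reads), and its interval, 1.003 to 1.38, excluded a ratio of 1. Sox10 had too few reads to be compared (25 and 37). In that list 4 of 5 genes were detected, summing to 19.1 and 16.9 TPM, and of the 4 with enough reads 2 were higher in each library. Their part in the Bcan difference was not tested.

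Vcan and Mdk were higher in replicate 2. Vcan was 1.25-fold higher there (interval 1.20 to 1.29), Mdk 1.08-fold (1.04 to 1.13) and Ncan 1.03-fold (1.01 to 1.05). The sign for Ncan depends on the scaling, since its ratio of TPM was -0.0016 on the log2 scale. For Vcan the ratio of TPM was 1.15, below its counting interval. All 5 meningeal and mesenchymal markers were also higher in replicate 2, with Col1a1 at a log2 ratio of 0.42 and Col3a1 at 0.40, and their sum was 275 TPM in replicate 1 and 337 TPM in replicate 2. The cartilage marker Col2a1 was further apart in the same direction (log2 ratio 0.59, 2596 and 5042 reads), and of the 3 cartilage markers with enough reads 2 were higher there. All 4 midbrain markers were higher there too, by a median of 0.32 on the log2 scale. Of 7 radial glial markers 5 were higher there (median 0.08, Hes5 at 0.28). The same held for 4 of 5 endothelial and mural markers (median 0.06) and for 2 of 2 astrocyte markers with enough reads. All 5 neuronal markers were higher in replicate 1, by a median of -0.06 for replicate 2 over replicate 1. The part of any of these in the Vcan difference was not tested. Hapln1 did not differ beyond counting error (ratio 0.831, interval 0.607 to 1.14), and Acan had too few reads to be compared (0.357 to 4.81). Among the related genes 66 had at least 50 reads on average, of which 44 were higher in replicate 2 (beside 50.9% of all genes at that count), 0 differed 2-fold and 2 differed 1.5-fold (Xylt1 and Itgb3).

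**Figure D5:**
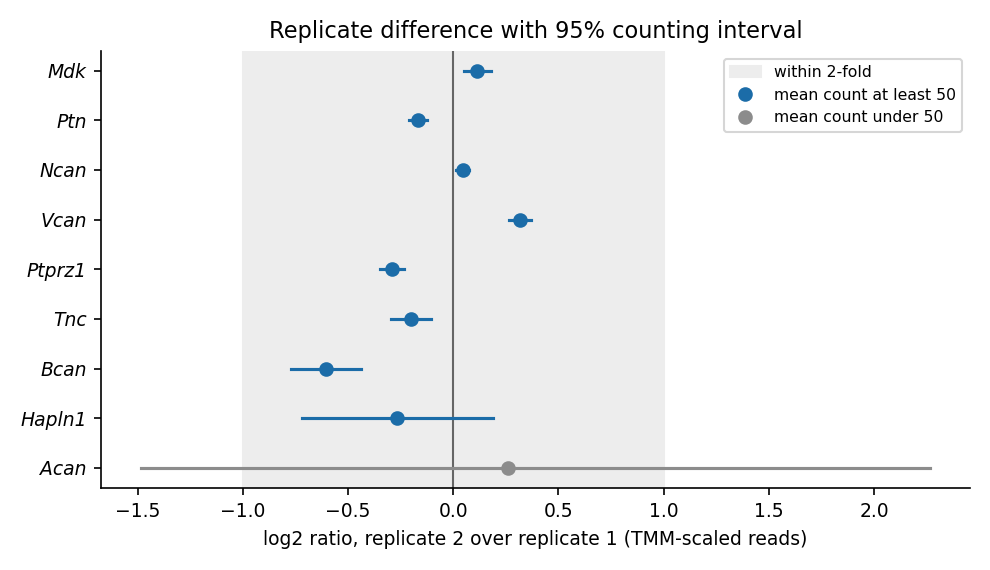
Log2 ratio of replicate 2 over replicate 1 of each of the 9 genes after TMM scaling, with its exact 95% interval for counting error (lines) and the range within 2-fold shaded. Bcan lies lowest at -0.60 and Vcan highest at 0.32 among the genes with enough reads, and the wide interval of Acan rests on 5 and 8 reads.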

How the data were processed

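For each of the 2 total RNA-seq libraries, genes and transcripts were tabulated on mm10 with GENCODE M4, per the deposited accompanying text. The deposited expected counts are estimates and can be fractional. TPM as deposited by the authors includes spike-ins and tRNA entries in its total. FPKM values were also deposited by the authors, per the file headers. Each transcript's share of its gene was deposited as a percent, from TPM or from its posterior mean. The bounds of TPM intervals, also deposited, were treated as signal values and are not printed. Aligner, tool versions and filters were not given in the sources used here. Reads that match more than 1 gene are split between them by estimation in tables of this kind.

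Names, positions and exons came from GENCODE M21 on GRCm38, matched for 42462 of 43346 genes. Sequences of joins were read from its transcripts. Levels are means over both libraries. Pairs were compared on the log2(TPM + 0.1) scale, which understates folds of low genes, with limma 3.58.1 in R 4.3.3 (two-sided, Benjamini-Hochberg, threshold 0.05). Expected counts were rounded, 0.5 reads were added, and libraries were scaled by TMM with edgeR 4.0.16. Intervals are Clopper-Pearson at 95%. The tables record no molecular identifiers, so reads are not taken as independent molecules. Procedures were run on simulated data, where a pass required that large known differences be found. No limit was set there on false calls.

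The members and lists were chosen with earlier results of these data known. All 9 members were named, and from each related list the highest, the lowest and further genes at 1 TPM or more; Has1, Has2, Has3, Alk and Itgb3, and Hapln2, Hapln3 and Hapln4 as neighbours of lecticans, were named after their values were seen. The marker lists cover radial glia, neurons, oligodendrocyte precursors, astrocytes, cartilage, mesenchyme, vessels, midbrain and hindbrain. Alternatives were other pseudocounts, filters, folds, FPKM, posterior means, DESeq2 1.42.0 size factors, upper quartiles, totals, each library alone, and, added after seeing the data, the gene-wise spread and later transcript lengths.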

Additional observations from a re-analysis of the deposited data

How the results depend on the processing

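By the share of reads in place of abundance, Vcan-203 held 81.9% of the gene, since a long transcript collects more reads. Bcan-201 moved from 82.3% to 92.6% by the share of reads and to 73.0% by posterior mean TPM. At 1.5-fold in place of 2-fold, 1 member (Bcan) differed between the libraries. The Ncan ratio turned from 0.04 to -0.0016 on the log2 scale when taken from TPM. On that scale the Vcan ratio went from 0.32 to 0.20 and the Ptn ratio from -0.17 to -0.22, each outside its counting interval. With each library alone the median of the members ranged from 23.2 to 29.3 TPM, Vcan-203 from 46.2% to 48.1%, members detected from 7 to 7 and related genes detected from 57 to 62. At 0.5 TPM 8 members were detected, Hapln1 included, and at 5 TPM 7. Related genes detected were 67 at 0.5 TPM and 43 at 5 TPM. Of 288 alternative values of single pairs that could be tested, 286 kept their direction and side of the threshold, and the other 2 were Mdk against Ptn with the later Ptn length. Most of the 288 came from the planned fit, whose p-values are too small. Calls with the gene-wise spread were not repeated under other pseudocounts, filters, FPKM or posterior means. Differences of pairs without Ptn or Hapln1 could not change with the later lengths. Of 18 member levels from rescaled or posterior mean TPM 14 moved by less than 1 SD, and of 36 alternative member ratios 33 moved by less than the counting interval. No paired analysis was possible because the series has 1 group. The ratio between the libraries cannot be recomputed without a library. Acan and Hapln1 are limited by depth.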
